A study of Mus musculus with 24 samples.

Results

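The comparison described here is between colons of mice with T cell transfer colitis that received a MEK inhibitor at 1 mg/kg and colons of colitic mice that received vehicle. It used 8 of the 24 RNA sequencing libraries of the study, 4 MEKi 1 libraries and 4 Vehicle libraries, each assigned by the sample that its own count file belongs to. All mice were C.B-17/Icr-scid/scid (SCID) females, 7 weeks old at purchase, a strain that lacks mature T and B cells. Mice of both groups had received CD4+ T cells of BALB/c mice, activated before transfer. Vehicle mice received 0.5% methylcellulose. Mice of MEKi 1 received enteric microparticles of the inhibitor by mouth, once daily on days 17 to 27 at 1 mg/kg, and colons were taken on day 28. MEKi 0.3, with 4 libraries, received the same microparticles at 0.3 mg/kg, and Normal, with 4 libraries, came from SCID mice without transferred cells. No group received microparticles without the inhibitor, and methylcellulose is recorded for Vehicle alone, so the inhibitor and its carrier cannot be told apart. The labels number the replicates without saying that they are separate animals, so p-values measure only the spread between these libraries, which may be partly technical.

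MEK1 and MEK2, encoded by Map2k1 and Map2k2, are the kinases that phosphorylate and activate ERK, the last step of the RAS-RAF-MEK-ERK cascade. Growth factor receptors, T cell receptors and receptors for microbial products all feed into this cascade. Activated ERK induces its own feedback inhibitors, among them the phosphatase gene Dusp6 and the Sprouty gene Spry4, as well as transcription factor genes of the Ets family such as Etv4 and Etv5. In T cell transfer colitis the transferred CD4+ cells expand in a host without mature T and B cells of its own. They drive myeloid infiltration of the colon, and surface colonocytes, the absorptive cells that take up water, salt and short-chain fatty acids, are lost.

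Library totals were 4102817 to 5271844 counts in Vehicle and 3175698 to 4678256 in MEKi 1. Both groups carried T cell transcripts as labelled. Summed counts of 7 T cell genes (Cd3d, Cd3e, Cd3g, Cd5, Cd6, Trac and Trbc2) were 371 to 660 in Vehicle and 117 to 413 in MEKi 1, against 0 to 5 in Normal. All 15 colon markers listed, among them the villin gene Vil1, were measured. A table of the whole series names 16 of its 24 columns differently from the samples' own files. It gives the same name to 2 of the 8 libraries used here, and 191 of the 201 genes named by rule have the other sign under its names. Vehicle replicate 4 also carried transcripts of another organ. There, 15 genes of the pancreatic acinar cell, leaving out Zg16 because goblet cells also express it, summed to 7890 CPM, against 50.2 to 77.8 CPM in the other Vehicle libraries. They summed to 130.6 to 496.1 CPM in MEKi 1, 33.23 to 384 CPM in MEKi 0.3 and 1668 to 2260 CPM in Normal. Whether pancreas or colon cells gave the sums in these 3 groups was not tested. The part of pancreatic transcripts in the results was not tested. Counts without Vehicle replicate 4 are given for most of the lists described. Levels are in CPM, counts relative to the library's own total, with totals adjusted by trimmed mean of M values (TMM).

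Of 14773 genes tested with edgeR's quasi-likelihood test, 1565 passed a Benjamini-Hochberg adjusted p of 0.05 (10.6%). MEKi 1 was higher for 898 of them (6.08%) and lower for 667 (4.51%). With scaling by library totals alone the split was 639 higher and 714 lower. More than 2-fold changes were called for 360 genes higher (2.44%) and 367 lower (2.48%). The 8 libraries of the 2 groups did not overlap for 760 of the genes called higher and 529 of those called lower. Over all genes tested, 1532 did not overlap in the higher direction (10.4%) and 1305 in the lower (8.83%). The median log2 fold change over all genes was 0.00. Of the called genes, those higher in MEKi 1 had a median longest transcript of 3994.5 bases and those lower 2685.5 bases, against 3107 bases for genes not called.

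The number of calls rested heavily on single libraries. It was 324, 812, 1251 and 128 without Vehicle replicates 1 to 4 in turn, and 43, 2369, 220 and 1447 without MEKi 1 replicates 1 to 4. In 984 of the 1565 called genes, MEKi 1 replicate 2 was the MEKi 1 library nearest to the Vehicle mean. On the other side, Vehicle replicate 3 was the Vehicle library nearest to MEKi 1 in 799. No gene called with all libraries was called in the opposite direction in any of these 8 fits. Each fit keeps all the other libraries of the full fit, so an opposite call was hardly possible and its absence says little about direction. Without both libraries numbered 4, an alternative chosen after seeing the data, 7 genes were called. These were Banp, Ctnnbip1 and Itsn1, higher, and Cd52, Cldn4, Gpr18 and Utp14a, lower. In the paragraphs that follow, counts without single libraries are given in the order Vehicle replicates 1 to 4, then MEKi 1 replicates 1 to 4.

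**Figure D1:**
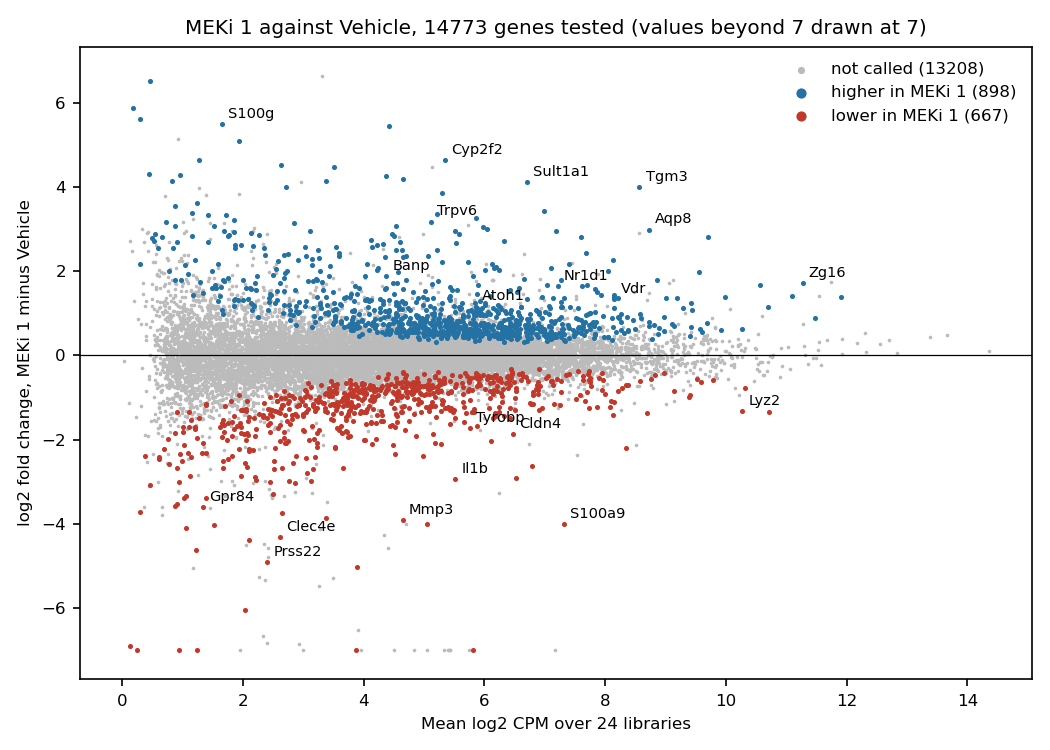
log2 fold change of MEKi 1 against Vehicle (vertical axis) by mean log2 CPM over 24 libraries (horizontal axis), 1 point per gene, for the 14773 genes tested. The 898 genes called higher and the 667 called lower are coloured, and the cloud of all genes is centred near 0.

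**Figure D2:**
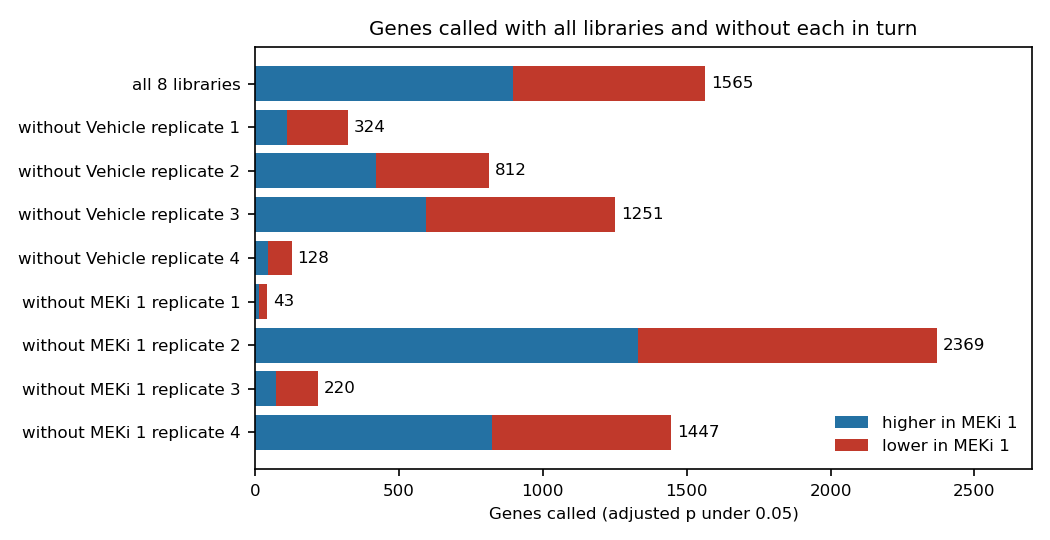
Number of genes called in MEKi 1 against Vehicle (horizontal axis) with all libraries and without each of the 8 libraries in turn (vertical axis), split by direction. The count falls to 43 without MEKi 1 replicate 1 and rises to 2369 without MEKi 1 replicate 2.

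Calls that held in all 8 of these fits were made for 38 genes, 13 higher and 25 lower, and they are described first because they do not turn on 1 library. The smallest p belonged to Banp, which encodes a DNA-binding protein of the nuclear matrix (chromosome 8). Its levels were 10.3, 11.01, 9.97 and 5.08 CPM in Vehicle and 29.1, 37.9, 27.4 and 40.9 CPM in MEKi 1. Every MEKi 1 library lay above every Vehicle library, and the log2 fold change was 1.89 ± 0.25 (SE; adjusted p = 0.00151). Ctnnbip1 encodes an inhibitor of the interaction of β-catenin with TCF factors. It had 14.3, 15.95, 15.5 and 14.4 CPM in Vehicle and 39.7, 23.7, 38.4 and 40.9 CPM in MEKi 1. Replicate 2 was the lowest of the MEKi 1 libraries and still above all of Vehicle, a log2 fold change of 1.24 ± 0.18 (adjusted p = 0.00222). Atoh1, the transcription factor that commits crypt cells to the secretory lineages, had 40.1, 29.2, 42.6 and 25.4 CPM in Vehicle and 82.98, 50.7, 98.5 and 73.9 CPM in MEKi 1. The groups did not overlap, and MEKi 1 was level with the Normal mean of 74.9 CPM (log2 fold change against Vehicle 1.16 ± 0.22, adjusted p = 0.00995). Nlrp6, an innate sensor of the gut epithelium, rose by 1.39 ± 0.26 on the log2 scale (adjusted p = 0.00936). Nfya, Ankrd10, Crebbp, Ccnt2, Map3k5 and Rprm were also among the 13. Of these, Nfya and Ankrd10 are named by the rule, and the other 4, like Nlrp6 and Itsn1 above, were singled out after their values were seen. Crebbp encodes a histone acetyltransferase and Map3k5 the stress kinase ASK1, and their log2 fold changes were 0.72 ± 0.14 and 0.94 ± 0.17.

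Among the 25 genes lower in all 8 fits, the smallest p belonged to Gpr18, a G protein-coupled receptor gene expressed in lymphocytes. It had 8.88, 8.73, 7.23 and 8.12 CPM in Vehicle and 1.38, 2.09, 1.53 and 1.73 CPM in MEKi 1. Both groups were tight and far apart (log2 fold change -2.27 ± 0.33, adjusted p = 0.00222). Cldn4, a claudin of epithelial tight junctions (chromosome 5), had 138, 160, 154 and 147 CPM in Vehicle and 44.5, 46.3, 39.4 and 34.3 CPM in MEKi 1. All 4 MEKi 1 libraries lay far below Vehicle, beside a Normal mean of 52.6 ± 21.5 CPM (SD, n = 4), and the log2 fold change was -1.86 ± 0.27 (adjusted p = 0.00222). Of 24 claudins and junction genes tested, Cldn4 was the only one called. Its neighbours in function, Cldn3, Cldn7 and the occludin gene Ocln, had log2 fold changes of 0.11, -0.18 and 0.45. Cd52, a small surface glycoprotein of lymphocytes and monocytes, had 87.98, 102, 68.04 and 118 CPM in Vehicle and 25.7, 44.2, 39.6 and 42.99 CPM in MEKi 1. No MEKi 1 library reached the lowest Vehicle library (log2 fold change -1.31 ± 0.20, adjusted p = 0.0033). Igf1, a growth factor made by fibroblasts and macrophages and singled out after its values were seen, had 46.9, 41.96, 31.2 and 55.4 CPM in Vehicle. In MEKi 1 it had 5.50, 12.6, 9.46 and 12.8 CPM, all below Vehicle and around the Normal mean of 9.69 CPM. Its log2 fold change was -2.13 ± 0.38 (adjusted p = 0.00936). Bmp8b, a bone morphogenetic protein gene, and Nt5c1a, a cytosolic nucleotidase gene, were at 0.51 CPM or less in all 4 MEKi 1 libraries. Their Vehicle means were 6.98 ± 3.90 and 3.35 ± 0.13 CPM (SD, n = 4). Tyrobp, Fcer1g, Lcp2, Cxcl16 and Cfp, also among the 25, are described with their lists.

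**Figure D3:**
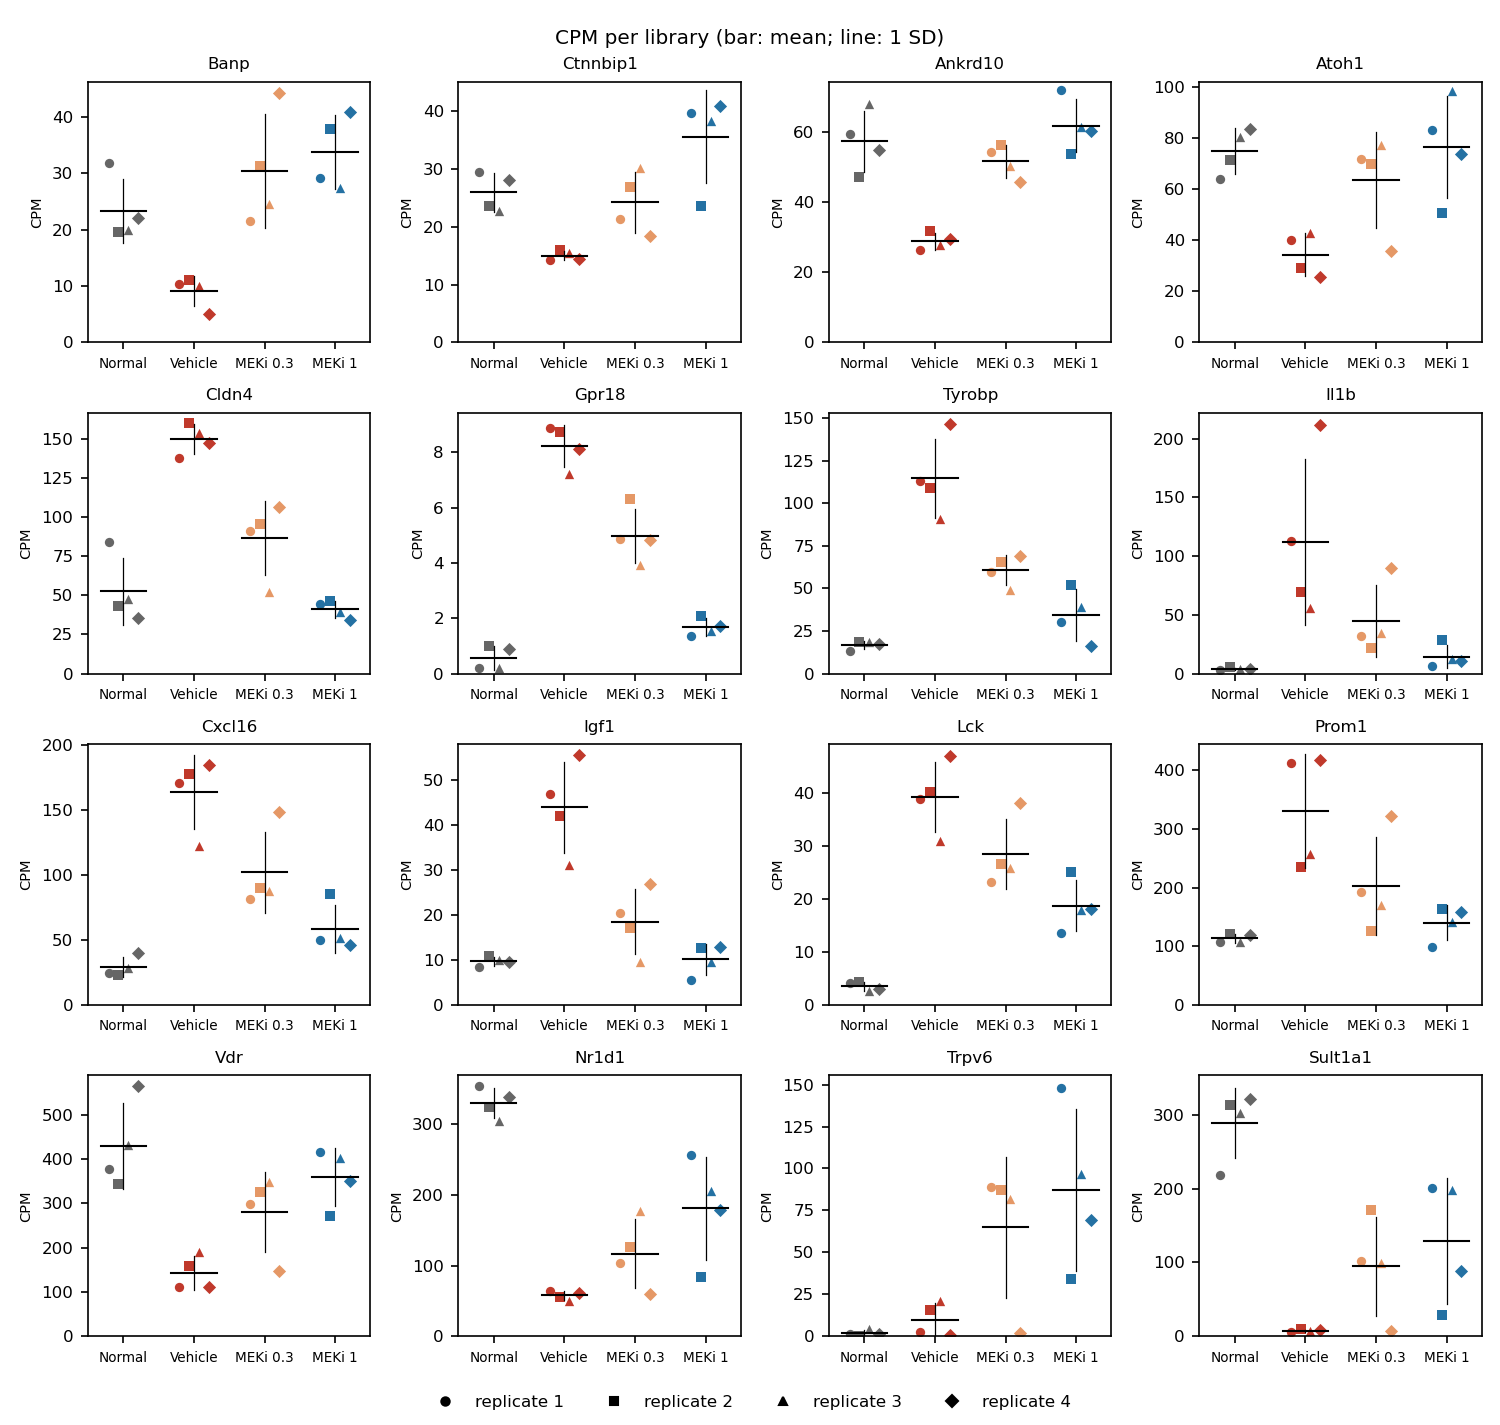
CPM of 16 genes (1 panel each, vertical axis) in the 4 libraries of Normal, Vehicle, MEKi 0.3 and MEKi 1; marker shape gives the replicate number, the bar the mean and the line 1 SD. Banp, Ctnnbip1, Cldn4 and Gpr18 show no overlap between Vehicle and MEKi 1, while in Trpv6 and Sult1a1 MEKi 1 replicate 2 lies well below replicates 1 and 3.

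Genes at both ends of the range of fold changes were named by rule, and 3 from each end are given here. Among the 12 lowest, Prss22, a serine protease of epithelia, had 17.3, 11.01, 5.23 and 13.4 CPM in Vehicle and 0.229, 0.837, 0 and 0.347 CPM in MEKi 1 (log2 fold change -4.90 ± 0.95, adjusted p = 0.0112). Hp, the haemoglobin-binding acute phase protein haptoglobin, had 102, 59.8, 20.7 and 174 CPM in Vehicle and 3.21, 13.6, 1.02 and 3.47 CPM in MEKi 1 (-3.996 ± 0.99, adjusted p = 0.0226). Irg1, the enzyme that makes itaconate in activated macrophages, had 25.2, 17.5, 7.98 and 41.6 CPM in Vehicle and 0.917, 5.65, 1.53 and 3.47 CPM in MEKi 1 (-2.98 ± 0.63, adjusted p = 0.0125). In these 3 genes Vehicle replicates 1 and 4 were the highest Vehicle libraries, replicate 2 was the highest of MEKi 1, and the groups did not overlap. Among the 12 highest, Tgm3, a transglutaminase of surface epithelium, had 6.82, 43.1, 23.9 and 7.11 CPM in Vehicle and 448, 58.0, 530 and 262 CPM in MEKi 1 (3.999 ± 1.19, adjusted p = 0.0402). Hao2, a peroxisomal oxidase, had 5.58, 6.65, 23.2 and 4.87 CPM in Vehicle and 160, 35.8, 161 and 68.3 CPM in MEKi 1 (3.43 ± 1.03, adjusted p = 0.0416). Rims4, a gene of the synaptic RIM family, had 0.413, 0.760, 0.748 and 0 CPM in Vehicle and 14.7, 3.35, 9.72 and 6.93 CPM in MEKi 1 (4.14 ± 1.12, adjusted p = 0.0289). In these 3 genes replicate 2 was the lowest MEKi 1 library and still above Vehicle. Prss22, Hp and Irg1 were called in 7, 4 and 5 of the 8 fits without 1 library, and Tgm3, Hao2 and Rims4 in 2, 3 and 3. None of the 6 was called without MEKi 1 replicate 1.

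The promoter of Cldn4 is shown because it is the most strongly separated epithelial gene that fell, and because AP-1, the dimer of Fos and Jun proteins, is a factor that ERK signalling is known to feed. The 250 bases before the start of Cldn4 are from RefSeq on GRCm38.p6, minus strand, chr5:134946935-134947184, written 5′ to 3′, with matches to the AP-1 motif TGANTCA in capitals. Those of Plaur (plus strand, chr7:24462233-24462482) and Mmp3 (plus strand, chr9:7445572-7445821), which are described further on, follow in the same form.
Cldn4: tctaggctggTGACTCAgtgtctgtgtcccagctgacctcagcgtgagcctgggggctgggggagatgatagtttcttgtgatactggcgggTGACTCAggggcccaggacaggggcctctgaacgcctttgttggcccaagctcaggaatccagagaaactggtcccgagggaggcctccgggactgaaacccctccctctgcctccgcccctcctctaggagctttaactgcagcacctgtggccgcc
Plaur: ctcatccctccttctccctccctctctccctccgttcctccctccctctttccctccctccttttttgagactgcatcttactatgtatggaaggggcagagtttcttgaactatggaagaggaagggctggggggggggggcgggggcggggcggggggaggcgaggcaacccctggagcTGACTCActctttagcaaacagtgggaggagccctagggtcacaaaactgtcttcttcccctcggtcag
Mmp3: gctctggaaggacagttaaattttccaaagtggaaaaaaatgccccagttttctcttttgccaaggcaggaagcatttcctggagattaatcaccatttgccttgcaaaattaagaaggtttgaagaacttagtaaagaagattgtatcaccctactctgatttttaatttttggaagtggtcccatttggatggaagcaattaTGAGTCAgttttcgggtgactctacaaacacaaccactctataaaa
Cldn4 held 2 matches, and Plaur and Mmp3 held 1 each, 69 and 46 bases before the start. Those matches are in the bases shown. For the shares that follow, both strands were searched from 250 bases before to 50 bases after the start. The motif stood in 7.81% of all 32851 promoter windows of the table and in 5.26% of the 10156 windows of tested genes. It stood in 6.98% of the 673 windows of genes called higher and in 8.54% of the 480 windows of genes called lower. Of the 148 named genes with a window, 21 held the motif, and Cldn4, Plaur and Mmp3 are shown from among those with a match. A match is a run of letters and not a shown binding site. Whether AP-1 or ERK signalling acts on these promoters was not tested.

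Transcripts that report ERK activity were asked first, since the pathway is the drug's target. Of 19 measured genes of ERK feedback and output, 1 fell and none rose, at a median log2 fold change of -0.14. All MEKi 1 libraries lay below all Vehicle libraries for 5 of the 19 (8.83% of all genes did so) and above them for 1 (10.4%). The summed level of the 20 listed genes in the files was 613.0, 617.1, 631.1 and 682.0 CPM in Vehicle and 445.1, 602.0, 530.1 and 534.6 CPM in MEKi 1. The sums did not overlap, with replicate 2 close to Vehicle. Sums of the 19 tested genes did not overlap under either other scaling. Dusp6, the ERK phosphatase gene, had 56.4, 65.9, 54.1 and 54.01 CPM in Vehicle and 60.3, 82.3, 60.9 and 58.2 CPM in MEKi 1. The groups overlapped, and the log2 fold change was 0.19 ± 0.22 (adjusted p = 0.589). Spry4, which blocks signalling upstream of ERK, had 8.67, 20.3, 16.7 and 11.6 CPM in Vehicle and 8.94, 19.3, 10.996 and 12.5 CPM in MEKi 1, at -0.14 ± 0.28 (adjusted p = 0.76). Etv4 had 20.2, 14.1, 13.2 and 13.2 CPM in Vehicle and 8.02, 12.98, 10.2 and 11.4 CPM in MEKi 1, below Vehicle in all libraries but short of the threshold (adjusted p = 0.284). For Etv5 the groups overlapped (adjusted p = 0.963). Colons were taken on the day after the last recorded dosing day. The member that fell was Ier3, an early response gene, with 43.4, 36.6, 30.7 and 50.6 CPM in Vehicle and 19.03, 25.3, 18.4 and 17.7 CPM in MEKi 1. Its groups did not overlap (log2 fold change -0.997 ± 0.24, adjusted p = 0.0182). In the 8 fits without 1 library, 0, 1, 1, 0, 0, 2, 0 and 1 members fell, and 2 rose without MEKi 1 replicate 4.

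Of 23 immediate early genes, 2 fell and none rose. Both encode phosphatases of MAP kinases. Dusp1 had 33.7, 56.97, 41.1 and 46.1 CPM in Vehicle and 28.4, 21.8, 29.9 and 25.3 CPM in MEKi 1, without overlap (-0.76 ± 0.17, adjusted p = 0.0145). Dusp2, a phosphatase gene of leukocytes, was lower too (-1.29 ± 0.39, adjusted p = 0.0379). Fos, Jun and Egr1, the best known genes of this class, had log2 fold changes of 0.03, 0.27 and -0.45 and did not pass. Of 17 genes for the RAS, RAF, MEK and ERK kinases themselves, Map2k1 alone was called. It had 126, 143, 127 and 111 CPM in Vehicle and 205, 162, 217 and 135 CPM in MEKi 1. Its replicate 4 lay within the Vehicle range (0.50 ± 0.15, adjusted p = 0.0364). Map2k2 and Mapk3 had log2 fold changes of -0.11 and 0.24. Erbb2, a receptor of the EGF family, was the called member among 11 EGF receptor and ligand genes, with 94.8, 91.7, 99.4 and 74.1 CPM in Vehicle and 201, 126, 166 and 143 CPM in MEKi 1. All MEKi 1 libraries were higher (0.82 ± 0.23, adjusted p = 0.0282). The shares called lower were 5.26% of ERK feedback and output genes and 8.7% of immediate early genes, beside 4.51% of all genes. Those called higher were 5.88% of the kinase genes and 9.09% of the EGF receptor and ligand genes, beside 6.08% of all genes. Each share rests on 1 or 2 genes. The counts of immediate early genes that fell were 1, 1, 2, 0, 0, 3, 1 and 1 in the 8 fits, and Map2k1 and Erbb2 were called in 3 of the 8 each; neither call held without Vehicle replicate 1 or 4 or MEKi 1 replicate 1 or 3.

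Lists of myeloid genes are given next. The members of these lists and of those that follow were chosen with earlier results of these data known, so their counts describe and do not test the lists. Each count is to be read beside the 6.08% of all genes called higher and the 4.51% called lower. Of 21 Fc and paired receptors, the surface molecules by which myeloid cells read antibodies and self ligands, 16 fell and none rose. All 21 log2 fold changes were negative, with a median of -1.53. Tyrobp, the adapter that carries the signal of many of these receptors, had 113, 109, 90.97 and 147 CPM in Vehicle and 30.5, 52.3, 38.9 and 15.9 CPM in MEKi 1. The highest MEKi 1 library was well below the lowest Vehicle library (-1.72 ± 0.28, adjusted p = 0.00626). Fcer1g, the common γ chain of Fc receptors, had 109, 83.5, 81.3 and 147 CPM in Vehicle and 26.6, 40.4, 45.8 and 28.1 CPM in MEKi 1 (-1.58 ± 0.28, adjusted p = 0.00834). Lilrb4 and Gp49a, a pair of near-identical receptor genes whose reads may be shared, had log2 fold changes of -1.91 and -2.41. The count of Fc and paired receptors that fell was 11, 16, 16, 4, 4, 17, 11 and 16 in the 8 fits without 1 library. Tyrobp, Fcer1g, Lilrb4 and Gp49a were called in all of them. None of 9 mast cell and eosinophil genes passed, though 4 fell and 1 rose without MEKi 1 replicate 2 and 1 rose without MEKi 1 replicate 4. Of 13 dendritic cell genes 1 rose, Dpp4, and 1 fell, the actin-bundling gene Fscn1. Without Vehicle replicate 4, 1 dendritic cell gene fell and none rose. In bulk tissue, fewer cells of a type and less RNA per cell cannot be told apart.

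Of 29 monocyte and macrophage genes, 14 fell and none rose (median log2 fold change -1.21). Ms4a6c, a monocyte surface protein gene, had 30.6, 26.4, 21.7 and 34.5 CPM in Vehicle and 10.5, 15.3, 14.6 and 5.89 CPM in MEKi 1. No library overlapped (-1.27 ± 0.28, adjusted p = 0.0129). Of 26 C-type lectin, Toll-like and other pattern receptors, 9 fell. Clec7a, the β-glucan receptor Dectin-1, had 48.9, 51.5, 56.6 and 93.2 CPM in Vehicle and 10.8, 32.2, 17.4 and 4.85 CPM in MEKi 1. MEKi 1 replicate 2 was the highest of its group and below all of Vehicle (-1.90 ± 0.37, adjusted p = 0.0108). Clec12a, an inhibitory lectin of granulocytes and monocytes, had 12.6, 11.8, 9.47 and 20.7 CPM in Vehicle and 4.36, 3.35, 3.32 and 2.08 CPM in MEKi 1. It fell by 2.03 on the log2 scale and was called in all 8 fits. The count of monocyte and macrophage genes that fell was 11, 13, 15, 2, 2, 21, 7 and 13 in these fits, and that of pattern receptors 7, 8, 10, 3, 1, 13, 6 and 8.

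Of 25 neutrophil genes, 15 fell and none rose, with the lowest median of the myeloid lists at -2.09. Fpr2, a formyl peptide receptor that guides neutrophils to bacteria, had 21.5, 14.1, 11.96 and 35.7 CPM in Vehicle and 1.83, 5.86, 2.05 and 1.73 CPM in MEKi 1. Vehicle replicate 4 was the highest and MEKi 1 replicate 2 the highest of the treated libraries (-2.80 ± 0.57, adjusted p = 0.0112). Mcemp1, a mast cell and myeloid membrane protein gene, had 8.88, 6.08, 2.99 and 16.04 CPM in Vehicle and 1.38, 1.47, 1.79 and 1.04 CPM in MEKi 1 (-2.56 ± 0.51, adjusted p = 0.0108). Neutrophil calls moved more between fits than those of the Fc receptors: 3, 11, 16, 2, 0, 15, 2 and 8 fell. The summed level of all 28 listed genes in the files, tested or not, went from 2927 ± 376.2 CPM in Vehicle to 2288 ± 463.5 CPM in MEKi 1 (SD, n = 4). Vehicle replicate 1, at 2386 CPM, lay below MEKi 1 replicates 2 and 4, at 2600 and 2761 CPM. Of 8 colony-stimulating factors and receptors, 3 fell, the GM-CSF receptor genes Csf2ra, Csf2rb and Csf2rb2. Csf2ra had 44.8, 54.5, 42.1 and 55.8 CPM in Vehicle and 23.8, 37.5, 28.6 and 22.9 CPM in MEKi 1 (-0.80 ± 0.19, adjusted p = 0.0151). Csf2rb and Csf2rb2 are close copies that may share reads, and their groups overlapped. Of 14 genes for oxidant enzymes, Cybb and Rac2, parts of the phagocyte oxidase, fell, at log2 fold changes of -1.63 and -1.24. Counts of 1, 1, 4, 0, 0, 4, 1 and 2 colony-stimulating factor genes and of 1, 2, 3, 1, 0, 4, 1 and 5 oxidant enzyme genes fell in the 8 fits.

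**Figure D4:**
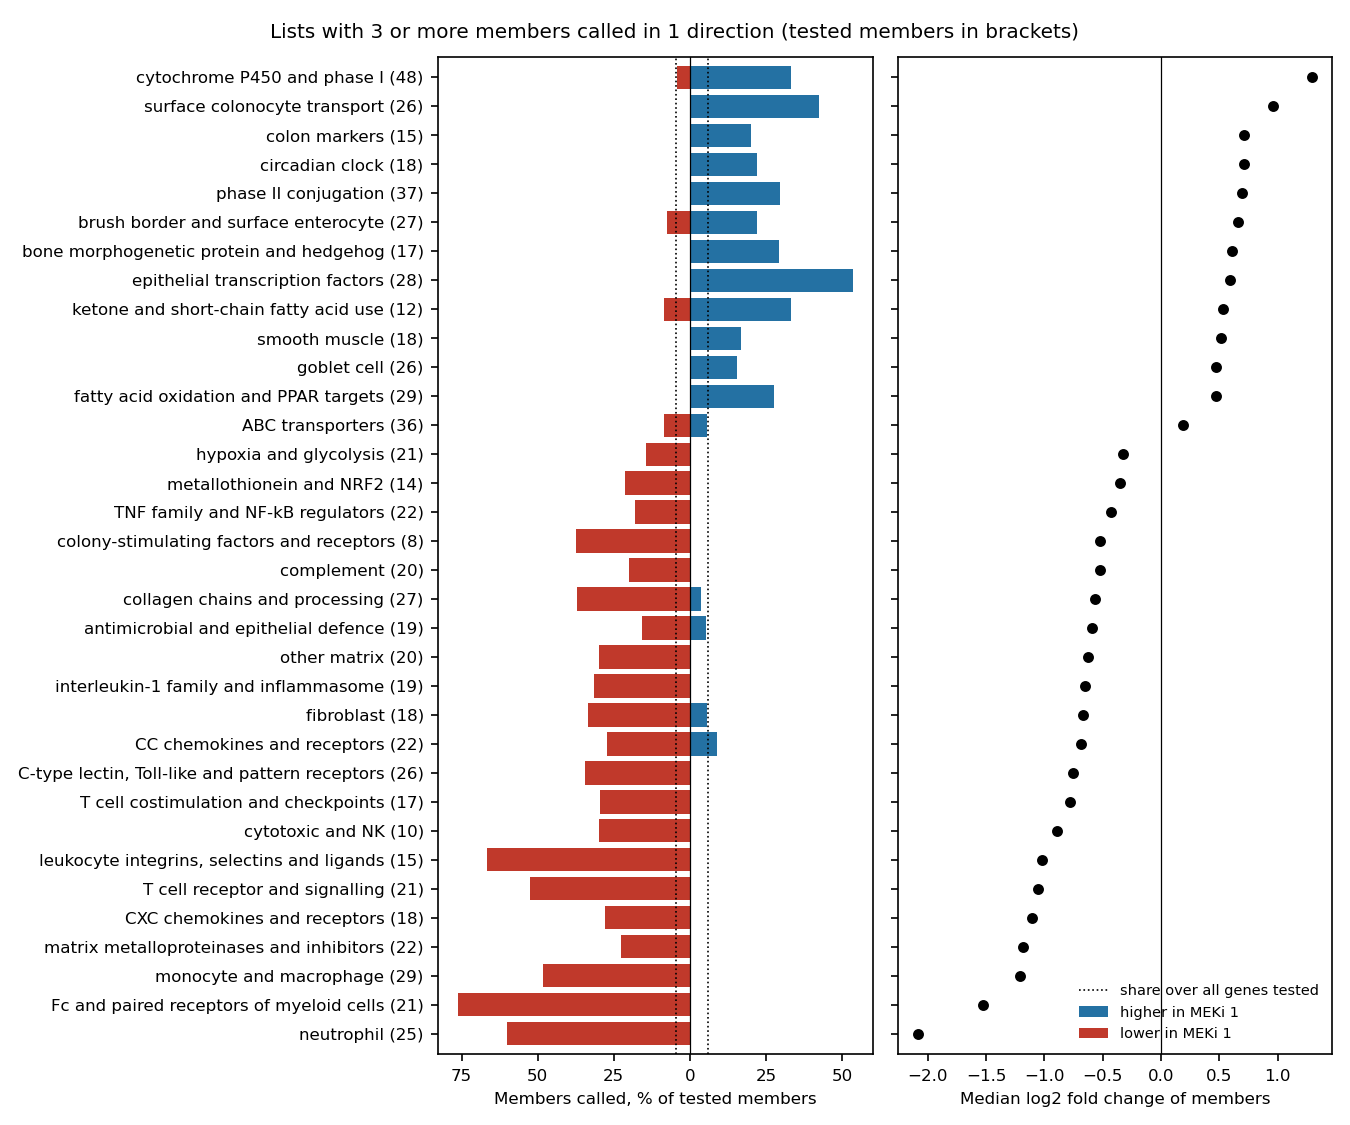
Share of tested members called higher (right of 0) or lower (left of 0) in MEKi 1, in percent, and median log2 fold change of the members (right panel), for lists with 3 or more members called in 1 direction; the dotted lines give the shares over all genes, 6.08% higher and 4.51% lower. Fc and paired receptors and neutrophil genes lie at the lower end, and cytochrome P450 and surface colonocyte genes at the upper end.

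Among soluble signals of inflammation and their receptors, of 19 genes of the interleukin-1 family and inflammasome, 6 fell and none rose. Il1a, an alarm cytokine, had 14.3, 15.4, 8.72 and 11.8 CPM in Vehicle and 1.15, 4.61, 1.02 and 0.347 CPM in MEKi 1. Replicate 2 was again nearest to Vehicle, without overlap (-2.70 ± 0.61, adjusted p = 0.0146). Il1b, the main interleukin-1 of myeloid cells, had 113, 69.3, 55.6 and 212 CPM in Vehicle and 6.19, 28.3, 12.5 and 10.7 CPM in MEKi 1. Il18rap, a chain of the interleukin-18 receptor, had 10.5, 12.3, 3.99 and 9.34 CPM in Vehicle and 2.29, 3.98, 1.79 and 2.08 CPM in MEKi 1, at -1.81 ± 0.40 (adjusted p = 0.014). Il1f6, the interleukin-36α gene, had 49 counts over the Vehicle libraries and 0 over the MEKi 1 libraries, at least 13.7-fold lower against a floor of 3 counts over the group (adjusted p = 0.0149). The count of interleukin-1 genes that fell was 4, 6, 7, 4, 0, 7, 2 and 6 without each library in turn. Of 22 genes of the TNF family and NF-kB regulators, 4 fell, Traf1, Tnfaip2, Ltb and Nfkbie, and their number was 0, 1, 6, 0, 0, 10, 1 and 2 in those fits. Traf1, an adapter of TNF receptors, had 22.1, 22.4, 16.7 and 27.8 CPM in Vehicle and 8.02, 12.4, 12.8 and 4.85 CPM in MEKi 1 (-1.21 ± 0.31, adjusted p = 0.0215). Tnf itself was at a log2 fold change of -0.94 (adjusted p = 0.21). None of 8 genes of interleukin-6 and oncostatin M signalling passed, and without MEKi 1 replicate 2 1 fell.

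Of 18 CXC chemokines and receptors, 5 fell and none rose. Cxcl16, a membrane-bound chemokine that attracts T cells, had 171, 178, 122 and 185 CPM in Vehicle and 49.97, 85.6, 51.4 and 46.1 CPM in MEKi 1. The groups were well apart (-1.49 ± 0.25, adjusted p = 0.00673), and the call held in all 8 fits. Cxcl14 had 51.2, 67.03, 52.3 and 103 CPM in Vehicle and 25.9, 30.8, 33.5 and 24.96 CPM in MEKi 1 (-1.24 ± 0.26, adjusted p = 0.0114). Cxcl13, which attracts B cells, fell by 1.55 on the log2 scale, and Cxcl2, which attracts neutrophils, fell by 3.03. Of 22 CC chemokines and receptors, 6 fell and 2 rose. Those that rose, singled out after their values were seen, were Ccl28, a mucosal chemokine made by epithelium, and Ackr4, a scavenging receptor. Ccl28 had 51.2, 77.5, 97.2 and 38.6 CPM in Vehicle and 221, 138, 202 and 125 CPM in MEKi 1, all higher (1.38 ± 0.36, adjusted p = 0.0266). Ackr4 had a log2 fold change of 1.79. Ccl2, which recruits monocytes, had 38.4, 27.2, 17.4 and 35.7 CPM in Vehicle and 2.98, 12.6, 4.86 and 11.1 CPM in MEKi 1, without overlap (-1.93 ± 0.44, adjusted p = 0.0149). Ccl9 had 59.3, 39.7, 28.9 and 51.4 CPM in Vehicle and 15.6, 16.7, 17.4 and 21.5 CPM in MEKi 1. The treated libraries were tight and around the Normal mean of 16.6 CPM (-1.34 ± 0.27, adjusted p = 0.0108). Ccr1, a receptor of monocytes and T cells, fell by 1.47 on the log2 scale. CXC genes that fell numbered 3, 3, 5, 1, 1, 10, 3 and 4 in the 8 fits, and CC genes 3, 4, 6, 1, 0, 8, 2 and 5. CC genes that rose numbered 0, 2, 1, 0, 0, 2, 0 and 2.

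Of 21 genes of the T cell receptor and its signalling, 11 fell and none rose, all 21 were negative, and the median log2 fold change was -1.06. Cd3d, a chain of the receptor complex, had 11.6, 8.35, 8.72 and 10.8 CPM in Vehicle and 2.75, 6.07, 3.32 and 4.16 CPM in MEKi 1. The groups did not overlap (-1.26 ± 0.31, adjusted p = 0.0204). Lcp2, the adapter SLP-76, had 36.97, 31.5, 26.9 and 42.2 CPM in Vehicle and 7.56, 19.9, 12.8 and 5.89 CPM in MEKi 1 (-1.55 ± 0.28, adjusted p = 0.00936). It is shared with myeloid cells and was the member called in all 8 fits. Skap1, an adapter of T cell adhesion, had 13.8, 11.8, 7.98 and 9.95 CPM in Vehicle and 3.21, 5.86, 3.58 and 4.51 CPM in MEKi 1 (-1.34 ± 0.30, adjusted p = 0.0145). Cd4 and Cd28 did not pass, at log2 fold changes of -0.56 and -0.12. The count of T cell receptor genes that fell was 4, 4, 11, 2, 1, 17, 2 and 7 without each library. Against Normal, 20 of the 21 were higher in MEKi 1, at a median log2 fold change of 4.29.

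Of 17 costimulation and checkpoint genes, 5 fell, among them Cd80, Cd40 and Pdcd1, the gene of the checkpoint receptor PD-1. Cd80, a ligand of CD28 on antigen-presenting cells, had 3.72, 2.85, 1.25 and 4.87 CPM in Vehicle and 0.688, 0.628, 1.02 and 0 CPM in MEKi 1 (-2.33 ± 0.54, adjusted p = 0.0148). Among genes of cytotoxic and NK cells 3 of 10 fell. Ctsw, a protease of cytotoxic cells, had 20.4, 25.3, 16.7 and 21.7 CPM in Vehicle and 8.94, 12.98, 9.46 and 6.24 CPM in MEKi 1, without overlap (-1.14 ± 0.24, adjusted p = 0.0112). Nkg7 and the perforin gene Prf1 fell, at log2 fold changes of -1.21 and -1.70. Of 11 T helper cytokine and regulator genes, the cytokine receptor genes Il2rg and Il12rb1 fell, and Ifng was at -1.25 (adjusted p = 0.28). None of the 11 was called without Vehicle replicate 4. Of 15 integrins, selectins and their ligands, by which leukocytes leave the blood, 10 fell. Madcam1, the gut vessel ligand of integrin α4β7, had 20.2, 23.4, 14.5 and 21.3 CPM in Vehicle and 7.11, 12.4, 6.39 and 6.24 CPM in MEKi 1. No MEKi 1 library reached Vehicle (-1.29 ± 0.25, adjusted p = 0.0108). Without each library, 1, 1, 3, 0, 0, 8, 1 and 1 costimulation genes, 2, 3, 3, 1, 0, 3, 2 and 3 cytotoxic genes and 3, 6, 11, 1, 0, 10, 3 and 7 adhesion genes fell.

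Of 23 interferon-γ inducible genes, 1 fell and none rose, with a median log2 fold change of 0.05. Their summed level was 4385, 4059, 4134 and 4012 CPM in Vehicle and 2412, 5455, 2810 and 5475 CPM in MEKi 1. Vehicle was tight, while MEKi 1 replicates 1 and 3 lay below all of Vehicle and replicates 2 and 4 above. The GTPase genes Gbp2 and Igtp had log2 fold changes of 0.07 and 0.28, and the transcription factor gene Irf1 -0.01. The member called was Cd274, the gene of the checkpoint ligand PD-L1, with 32.8, 42.7, 28.7 and 40.2 CPM in Vehicle and 14.4, 28.3, 17.6 and 17.3 CPM in MEKi 1 (-0.89 ± 0.25, adjusted p = 0.0313). It was called without Vehicle replicate 3 and without MEKi 1 replicate 2 and in none of the other 6 fits. None of 12 MHC class II, 20 MHC class I and peptide loading, or 23 type I interferon genes passed with all libraries. In the fits without 1 library, 1 class II gene fell without Vehicle replicate 3 and 2 type I interferon genes fell without MEKi 1 replicate 4. Cd74, the class II invariant chain, and H2-Aa had log2 fold changes of -0.23 and -0.07. Against Normal all 23 interferon-γ inducible genes and all 20 class I genes were higher in MEKi 1, at medians of 3.33 and 1.59.

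In the stroma and its matrix, of 27 genes of collagen chains and their processing, 10 fell and 1 rose (median -0.57). Col4a1, a chain of the basement membrane collagen, had 474, 316, 274 and 490 CPM in Vehicle and 188, 243, 156 and 144 CPM in MEKi 1. Vehicle replicates 1 and 4 were high, and the groups did not overlap (-1.09 ± 0.24, adjusted p = 0.0142). Col1a1, the main fibrillar collagen, had 458, 230, 243 and 503 CPM in Vehicle and 137, 147, 147 and 179 CPM in MEKi 1, beside a Normal mean of 153 CPM (-1.24 ± 0.30, adjusted p = 0.0198). Sparc, a collagen-binding protein of the matrix, fell by 1.24 on the log2 scale from 444, 269, 318 and 554 CPM to 151, 169, 150 and 204 CPM (adjusted p = 0.0129). Of 20 other matrix genes 6 fell, and of 18 fibroblast genes 6 fell and 1 rose. Grem1, the BMP antagonist of fibroblasts below the crypt, had 173, 82.03, 50.1 and 189 CPM in Vehicle and 29.3, 35.2, 30.7 and 26.004 CPM in MEKi 1. MEKi 1 was tight, and Vehicle varied widely without reaching it (-2.02 ± 0.47, adjusted p = 0.0174). The fibroblast member that rose was Dpp4, a peptidase also found on the brush border, at 1.19 ± 0.29 (adjusted p = 0.0188). Collagen genes that fell numbered 1, 10, 11, 0, 0, 12, 0 and 7 without each library, other matrix genes 2, 6, 7, 0, 0, 7, 1 and 5, and fibroblast genes 3, 5, 6, 1, 0, 7, 2 and 5. Summed levels of all 28 listed collagen genes in the files were 4281, 2727, 2491 and 4196 CPM in Vehicle and 2124, 2328, 1828 and 1808 CPM in MEKi 1.

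Of 22 matrix metalloproteinases and inhibitors, 5 fell and none rose. Mmp3, stromelysin-1, whose promoter is shown above, had 94.8, 41.8, 14.95 and 101 CPM in Vehicle and 1.83, 7.75, 2.81 and 4.16 CPM in MEKi 1. The lowest Vehicle library, replicate 3, was still above the highest MEKi 1 library, replicate 2 (-3.90 ± 0.89, adjusted p = 0.0171). Timp1, an inhibitor of these proteases, had 42.8, 19.6, 8.72 and 30.7 CPM in Vehicle and 3.44, 7.95, 2.30 and 8.67 CPM in MEKi 1. Plaur, the receptor of urokinase, had 69.4, 60.003, 76.5 and 77.6 CPM in Vehicle and 13.8, 31.4, 14.8 and 5.89 CPM in MEKi 1, without overlap (-2.07 ± 0.42, adjusted p = 0.0114). Of 20 complement genes 4 fell, led by Cfp, properdin, at -1.47 ± 0.25 (adjusted p = 0.00673) and called in all 8 fits. Of 18 genes of endothelium and lymphatics 2 fell and none rose, and 5 of the 18 log2 fold changes were positive. Of those that fell, Plvap, the diaphragm protein of fenestrated vessels, had 173, 133, 112 and 138 CPM in Vehicle and 61.9, 79.8, 70.6 and 63.1 CPM in MEKi 1 (-1.01 ± 0.20, adjusted p = 0.0108). Endothelial genes that fell numbered 1, 2, 3, 1, 0, 2, 1 and 2 without each library, and 1 rose without MEKi 1 replicate 2 and 1 without MEKi 1 replicate 4. Of 21 hypoxia and glycolysis genes 3 fell, Hif1a, Hk3 and Angptl4. Metalloproteinase genes that fell numbered 2, 3, 8, 0, 0, 11, 0 and 3 without each library, complement genes 2, 4, 5, 1, 1, 8, 1 and 4, and hypoxia genes 2, 1, 3, 1, 0, 5, 1 and 3.

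Lists of epithelial genes did not all move 1 way. Among the 11 of them, the listed transport, transcription factor, goblet cell, enteroendocrine and BMP and hedgehog genes had only higher calls. Listed claudins and keratins had only a lower one each, and the other 4 lists had both. Of 26 genes of surface colonocyte transport, 11 rose and none fell (median 0.96). Slc4a4, a bicarbonate cotransporter, had 10.7, 20.1, 17.4 and 17.9 CPM in Vehicle and 60.1, 31.6, 61.9 and 39.5 CPM in MEKi 1 (1.54 ± 0.40, adjusted p = 0.0241). Aqp8, a water channel of the colon surface, had 44.6, 112, 109 and 55.4 CPM in Vehicle and 983, 107, 791 and 665 CPM in MEKi 1. Replicate 2 stayed in the Vehicle range while the other 3 were near the Normal mean of 911 CPM (2.98 ± 0.92, adjusted p = 0.0456). Colonocyte genes that rose numbered 0, 5, 8, 0, 0, 17, 0 and 7 without each library, so the count turns on Vehicle replicates 1 and 4 and MEKi 1 replicates 1 and 3. Summed levels were 4526 to 6620 CPM in Vehicle and 13084, 7347, 12223 and 10475 CPM in MEKi 1, between Vehicle and the Normal mean of 21099 CPM. Of 27 brush border and surface enterocyte genes, 6 rose and 2 fell (median 0.66). Anks4b, a scaffold of brush border links, had 47.5, 61.1, 61.6 and 48.9 CPM in Vehicle and 93.5, 72.01, 108 and 126 CPM in MEKi 1, all higher (0.87 ± 0.19, adjusted p = 0.0115). The members that fell were Emp1, a membrane protein gene, and Saa3, an acute phase gene singled out after its values were seen, at log2 fold changes of -1.25 and -2.92. Summed brush border levels overlapped, at 6703 to 7466 CPM in Vehicle and 10091, 6499, 10586 and 10608 CPM in MEKi 1, with replicate 2 below all of Vehicle. Brush border genes that rose numbered 1, 2, 3, 0, 0, 12, 1 and 2 without each library, and those that fell 0, 1, 3, 0, 0, 3, 0 and 1. Of 9 tuft cell genes, 1 rose and 1 fell, and none was called without Vehicle replicate 4.

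Of 28 epithelial transcription factors, 15 rose and none fell, the largest share of any epithelial list. Vdr, the vitamin D receptor, had 110, 159, 189 and 111 CPM in Vehicle and 415, 271, 402 and 350 CPM in MEKi 1, beside a Normal mean of 429 CPM (1.33 ± 0.30, adjusted p = 0.0151). Ppard, a nuclear receptor of lipid metabolism, rose by 0.61 ± 0.14. Of 17 genes of bone morphogenetic protein and hedgehog signalling, which act between epithelium and stroma, 5 rose. Bmp8b, lower in all 8 fits at a log2 fold change of -4.38, is not on this list. Ihh, the hedgehog ligand made by colonocytes, had 45.8, 63.8, 62.6 and 38.2 CPM in Vehicle and 135, 71.8, 104 and 113 CPM in MEKi 1 (1.01 ± 0.27, adjusted p = 0.0255). Its stromal target genes Gli1 and Hhip rose by 1.25 ± 0.35 and 1.20 ± 0.33. Transcription factor genes that rose numbered 3, 12, 11, 1, 0, 16, 2 and 11 without each library, and BMP and hedgehog genes 1, 4, 6, 1, 0, 7, 1 and 4. Of 19 stem cell and Wnt target genes, Lgr4 rose and 2 fell. Of these, Prom1, a membrane protein of crypt cells, had 412, 235, 257 and 417 CPM in Vehicle and 98.3, 163, 141 and 159 CPM in MEKi 1 (-1.24 ± 0.31, adjusted p = 0.021). No stem cell or Wnt target gene was called without Vehicle replicate 4.

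Of 26 goblet cell genes 4 rose, Atoh1, Muc3, Bcas1 and Zg16, and their number was 1, 1, 2, 1, 1, 6, 1 and 2 without each library. The 4 were 15.4% of the list, beside 6.08% of all genes called higher. For 12 of the 26 all MEKi 1 libraries lay above Vehicle (10.4% of all genes did so), and for 1 below (8.83%). Summed goblet cell levels did not overlap, at 12771 to 18269 CPM in Vehicle and 21216 to 27940 CPM in MEKi 1. Zg16, a lectin of the mucus layer, had 508, 945, 1088 and 1229 CPM in Vehicle and 3427, 1229, 3785 and 3915 CPM in MEKi 1, with replicate 2 level with Vehicle replicate 4 and the other 3 libraries clearly above (1.71 ± 0.53, adjusted p = 0.0453). Muc2, the main gel-forming mucin, was at 0.39 and did not pass. Of 18 enteroendocrine genes 2 rose (11.1%, beside 6.08% of all genes), Cpe and Ddc, which process peptide hormones and make serotonin. Their list summed to 296.6 to 649.3 CPM in Vehicle and 716.5 to 1349 CPM in MEKi 1, without overlap. Enteroendocrine genes that rose numbered 0, 1, 2, 0, 0, 3, 0 and 3 without each library. Pigr, the receptor that carries immunoglobulin A into the lumen, had 1538, 2217, 2553 and 1583 CPM in Vehicle and 5798, 3664, 5970 and 5075 CPM in MEKi 1. It was the only antimicrobial and defence gene of 19 to rise (1.38 ± 0.34, adjusted p = 0.0198), while Wfdc18, Ifitm1 and Sprr2h fell. Of 9 keratins, Krt7 fell by 0.87 on the log2 scale, a single call beside 4.51% of all genes called lower.

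A pair of genes of transcellular calcium uptake, which the vitamin D receptor is known to induce, was among the 12 highest. Trpv6, the apical calcium channel (chromosome 6), had 2.68, 15.4, 20.7 and 0.406 CPM in Vehicle and 148, 34.3, 96.9 and 69.3 CPM in MEKi 1. Every MEKi 1 library was higher than every Vehicle library (3.17 ± 0.99, adjusted p = 0.0472). Against Normal, with a mean of 1.76 CPM, the log2 fold change was 5.45 (adjusted p = 0.0057). S100g, the calcium carrier calbindin-D9k, had 3 counts over Vehicle and 131 over MEKi 1, 52.2 times as much after scaling (exact counting interval at 95%, 17.5 to 256.4). Its levels in MEKi 1 were 17.9, 0.837, 9.97 and 3.47 CPM, high in replicates 1 and 3 and low in replicate 2, and it did not differ from Normal by the test (adjusted p = 0.36). Trpv6 was called in 2 and S100g in 3 of the 8 fits, in neither case without Vehicle replicate 1, 2 or 4 or MEKi 1 replicate 1 or 3. The promoter of Trpv6 is shown with the only other named gene whose window holds the HNF4 motif CAAAGTCCA, the cytochrome gene Cyp2c68, matches in capitals (RefSeq on GRCm38.p6, minus strand for both, chr6:41636406-41636655 and chr19:39741102-39741351, 5′ to 3′). HNF4 proteins are the nuclear receptors that maintain enterocyte genes.
Trpv6: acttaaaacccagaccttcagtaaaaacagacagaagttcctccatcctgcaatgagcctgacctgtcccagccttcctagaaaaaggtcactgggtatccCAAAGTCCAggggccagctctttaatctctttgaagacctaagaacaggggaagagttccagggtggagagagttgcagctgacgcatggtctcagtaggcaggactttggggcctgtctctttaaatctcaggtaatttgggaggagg
Cyp2c68: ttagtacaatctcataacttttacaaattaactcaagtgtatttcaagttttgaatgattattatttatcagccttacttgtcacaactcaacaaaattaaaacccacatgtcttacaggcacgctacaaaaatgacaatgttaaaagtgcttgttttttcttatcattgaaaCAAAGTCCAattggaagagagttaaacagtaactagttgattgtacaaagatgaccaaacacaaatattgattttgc
The match lay 149 bases before the start in Trpv6 and 77 in Cyp2c68. On both strands this motif stood in 0.475% of all windows, 0.482% of the windows of tested genes, 0.892% of those of genes called higher and 0.833% of those of genes called lower. The shares of called genes rest on few windows, 6 of 673 for genes called higher and 4 of 480 for genes called lower. A match is again a run of letters and not a shown binding site. Whether HNF4 proteins act on these promoters was not tested.

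Among enzymes that handle foreign compounds, of 48 cytochrome P450 and other phase I genes, 16 rose and 2 fell (median 1.30). Cyp2s1, an epithelial P450, had 16.1, 23.7, 37.1 and 13.8 CPM in Vehicle and 118, 38.9, 108 and 68.3 CPM in MEKi 1. All of MEKi 1 lay above Vehicle, replicate 2 just so (1.88 ± 0.46, adjusted p = 0.0205). Cyp2d10 had 5.58, 11.01, 5.98 and 3.45 CPM in Vehicle and 103, 15.5, 84.9 and 48.9 CPM in MEKi 1 (3.26 ± 0.83, adjusted p = 0.0252), and members of its family are similar enough to share reads. Cyp2c68, Cyp2d12 and Cyp2f2 were among the 12 highest genes, at log2 fold changes of 4.25, 3.86 and 4.63. Of 37 phase II conjugation genes 11 rose and none fell. Gstm1, a glutathione transferase, had 71.3, 73.1, 103 and 73.7 CPM in Vehicle and 246, 101, 270 and 204 CPM in MEKi 1 (1.35 ± 0.36, adjusted p = 0.0268). P450 genes that rose numbered 0, 7, 9, 0, 0, 25, 0 and 17 without each library, and phase II genes 0, 3, 8, 0, 0, 15, 1 and 8.

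Of 29 genes of fatty acid oxidation and PPAR targets, 8 rose, none fell and 28 had a positive log2 fold change. Hadh, a dehydrogenase of mitochondrial β-oxidation, had 115, 141, 160 and 100.1 CPM in Vehicle and 305, 211, 310 and 216 CPM in MEKi 1, without overlap (1.01 ± 0.26, adjusted p = 0.0213). Acadm and Ehhadh, other steps of the same pathway, rose by 0.74 ± 0.19 and 0.89 ± 0.25. Of 12 genes of ketone and short-chain fatty acid use 4 rose, among them Slc5a8, the butyrate transporter. Slc5a8 had 90.3, 146, 159 and 99.9 CPM in Vehicle and 241, 215, 249 and 172 CPM in MEKi 1 (0.83 ± 0.25, adjusted p = 0.04). The member that fell, Hcar2, is a butyrate and niacin receptor that myeloid cells also carry. Oxidative phosphorylation gave 1 call among 77 genes, cholesterol synthesis 0 of 22 and ribosomal proteins 0 of 80. Fatty acid genes that rose numbered 1, 4, 6, 1, 0, 16, 1 and 8 without each library and short-chain fatty acid genes 0, 0, 5, 0, 0, 5, 0 and 4. Without MEKi 1 replicate 2, 4 cholesterol genes fell, and 3 ribosomal protein genes fell without MEKi 1 replicate 4.

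Of 36 cell cycle genes, 2 fell, Pcna and Ccnb1, 5.56% of the list beside 4.51% of all genes called lower. All but 1 log2 fold change was negative, and 19 genes had all MEKi 1 libraries below all Vehicle libraries, beside 8.83% of all genes. Ccnb1, cyclin B1, had 74.6, 65.9, 76.5 and 83.9 CPM in Vehicle and 24.1, 42.9, 27.6 and 45.1 CPM in MEKi 1 (-1.11 ± 0.33, adjusted p = 0.0383). The 8 fits called 0, 1, 1, 0, 0, 12, 0 and 2 of them lower. Of 17 genes of the amino acid stress response all were negative and 2 fell, Slc3a2 and Slc7a5, the subunits of the large neutral amino acid transporter. Slc3a2 had 107, 86.8, 76.5 and 108 CPM in Vehicle and 44.5, 61.5, 49.9 and 55.5 CPM in MEKi 1 (-0.84 ± 0.20, adjusted p = 0.0161). They numbered 0, 1, 3, 0, 0, 7, 0 and 1 in those fits.

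Of 18 circadian clock genes 4 rose and none fell, Nr1d1, Nr1d2, Per3 and Hlf. Nr1d1, the clock repressor REV-ERBα, had 64.4, 55.8, 49.6 and 61.5 CPM in Vehicle and 257, 83.3, 205 and 179 CPM in MEKi 1. The groups did not overlap, and the Normal mean was 330 CPM (1.64 ± 0.37, adjusted p = 0.0148). The time of day of sampling is not given in the sources used here. Clock genes that rose numbered 1, 4, 2, 0, 0, 6, 0 and 4 without each library. Of 18 smooth muscle genes 3 rose, Mylk, Lmod1 and Pgm5, and all 18 were lower in MEKi 1 than in Normal. Mylk, myosin light chain kinase, had 103, 120, 131 and 127 CPM in Vehicle and 251, 148, 250 and 161 CPM in MEKi 1 (0.75 ± 0.23, adjusted p = 0.0379). The 8 fits called 0, 1, 0, 0, 0, 5, 0 and 3 smooth muscle genes. Of 4 tested genes of interstitial cells of Cajal, the pacemaker cells of the gut wall, 1 was called, beside 6.08% of all genes called higher. Of the 4 log2 fold changes, 3 were positive and 1 was negative. The called member was Ano1, a chloride channel gene that marks these cells. It had 83.6, 88.1, 81.998 and 63.5 CPM in Vehicle and 337, 133, 311 and 212 CPM in MEKi 1 (1.65 ± 0.52, adjusted p = 0.0496, called in 1 of the 8 fits).

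**Figure D5:**
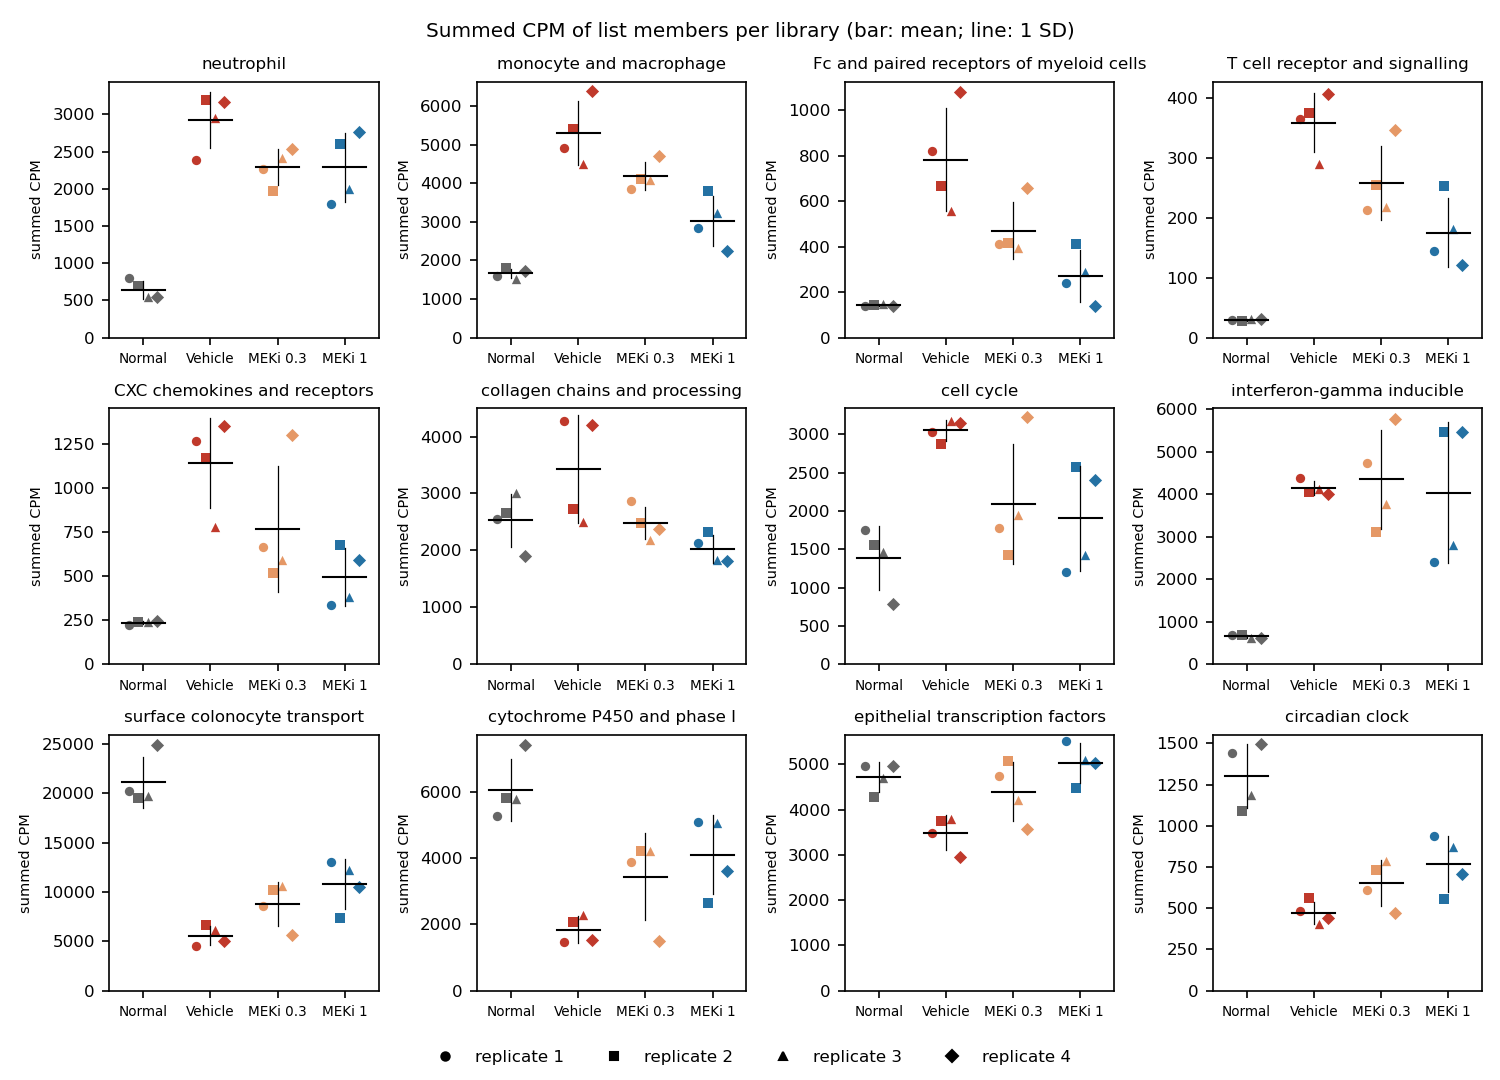
Summed CPM of all listed genes in the files for 12 lists (1 panel each, vertical axis) per library in Normal, Vehicle, MEKi 0.3 and MEKi 1; marker shape gives the replicate number, the bar the mean and the line 1 SD. MEKi 1 replicates 1 and 3 lie farthest from Vehicle in most panels, replicate 2 nearest, and in the interferon-γ panel MEKi 1 replicates 2 and 4, at 5455 and 5475 CPM, lie above all Vehicle libraries.

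The libraries of MEKi 1 differed among themselves. Summed T cell receptor genes were 143.9, 252.9, 181.8 and 120.7 CPM in MEKi 1, and 289.9 to 406.7 CPM in Vehicle. Replicate 4 was lowest here and in the Fc receptors, at 137.6 CPM against 238.4, 412.6 and 289.2 CPM in replicates 1 to 3. In surface colonocyte genes replicate 4 was instead between replicates 2 and 3. Of the 72 lists, the summed level did not overlap between MEKi 1 and Vehicle in 26, 11 higher and 15 lower.

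To ask whether the higher dose did more than the lower, MEKi 1 was tested directly against MEKi 0.3. No gene passed edgeR's adjusted p of 0.05 (0%), 641 had an unadjusted p under 0.05 (4.34%), and DESeq2 called 1. The 5 genes with the smallest p were Nt5c1a, Gpr18, Gabrp, Layn and Cldn4, all lower in MEKi 1 and all among the genes called against Vehicle. Both comparisons used the same MEKi 1 libraries, so agreement between them is not independent. Gpr18 had 4.85, 6.31, 3.93 and 4.85 CPM in MEKi 0.3, between Vehicle and MEKi 1 and overlapping neither. The difference between doses was -1.55 ± 0.34 on the log2 scale (unadjusted p = 0.000125, adjusted p = 0.926). Cldn4 had 91.5, 95.96, 52.4 and 106 CPM in MEKi 0.3, also between the other groups, and the difference was -1.07 ± 0.27 (adjusted p = 1.00). Gabrp, a GABA receptor subunit gene of epithelia, had 27.04, 19.1, 25.9 and 18.7 CPM in MEKi 0.3 and 19.6, 28.7, 18.9 and 24.97 CPM in Vehicle. In MEKi 1 it had 8.25, 6.91, 6.90 and 15.3 CPM, below both. The misses do not show that the doses act alike.

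Against Normal, MEKi 1 differed in 1898 genes (12.8%), 1190 higher (8.06%) and 708 lower (4.79%). Besides the T cell and interferon-γ lists, 10 of 12 MHC class II genes and 13 of 14 oxidant enzyme genes were higher. The total was 1255 without Normal replicate 4, 1026 without MEKi 1 replicate 2 and 1243 without MEKi 1 replicate 4. Of the 21 Fc receptors 8 were higher than in Normal, of 25 neutrophil genes 10 and of 29 monocyte and macrophage genes 13, and none of these lists had a lower member. Of 26 colonocyte transport genes 8 were lower than in Normal, and of 28 epithelial transcription factors 1 was higher and none lower. Of 27 collagen genes 5 were lower.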

How the data were processed

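Poly(A) RNA of mouse colon was sequenced in 24 libraries, per the labels' protocols. The authors deposited whole-number counts per gene symbol, with 1 file for each sample. The genome build was mm10, per the submitters' processing notes. Which aligner, counter and annotation were used is not given in the sources used here, nor whether strand was used, so close gene copies and overlapping genes may share reads.

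Samples were grouped by the labels of each sample's own file. One edgeR 4.0.16 model (R 4.3.3) covered the 24 libraries of all 6 groups. Genes were kept by filterByExpr, scaled by TMM and tested by a robust quasi-likelihood F test, 14773 in all, at a common dispersion of 0.0539. Benjamini-Hochberg adjustment ran over every gene tested, and calls needed an adjusted p under 0.05. Each SE was the size of the log2 fold change divided by the root of F, and the prior count was 0.125. Intervals and floors cover counting error only. Replicates of Vehicle and MEKi 1 differed by more than sampling noise (chi-square per gene 5.38 to 19.5).

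The comparison, its 72 gene lists and the tests were chosen with earlier results of these data known. Lists are described by counts of called members and by medians, with no set test. Named genes followed a rule: the 12 largest log2 fold changes in either direction for called genes with at least 5 CPM in the higher group and no overlap, leaving out predicted, Riken and receptor segment genes. It added the 10 smallest p, up to 4 called members of each list with the smallest p, Dusp6, Spry4, Etv4, Etv5, Map2k1, Map2k2 and Mapk3, and between doses the 5 smallest p. Against Normal only genes already named are given, and some genes met by these rules or lists are not reported here. Gene positions are from GENCODE M21 on mm10, which matched 14606 tested symbols. Motifs were searched on both strands from 250 bases before to 50 bases after each start, and the 250 bases before it are printed. Alternatives were RLE factors, library totals alone, no filter, at least 5 CPM, fits of 2 groups, the replicate number as a block, DESeq2 1.42.0, limma 3.58.1 voom with sample weights, a transcript length offset, the series table's column names and each library left out. On simulated counts for MEKi 1 against Vehicle with 14555 genes tested, 12.5% of genes changed 1.5-fold were called, 52% of those changed 2-fold and 79.6% of those changed 4-fold, with 4 false calls. The simulated counts were drawn gene by gene, without deviations shared across a library, so these rates may not hold for the real libraries.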

Additional observations from a re-analysis of the deposited data

Results flagged for a closer look

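For each gene and summed list given in the report, the gap between the highest or lowest of the 4 libraries and its nearest neighbour was set against the range of the group, in Vehicle and in MEKi 1. Chance alone marks about 1 in 20 groups, and 15 of 363 were marked (4.13%). In MEKi 1, replicate 2 stood apart as the lowest library for Ctnnbip1, at 23.65 CPM. It stood apart as the highest for Cxcl16 at 85.62 CPM, Dusp6 at 82.27, Fpr2 at 5.861, Ifng at 3.349, Madcam1 at 12.35 and Tnf at 40.61 CPM. Other MEKi 1 libraries stood apart as the highest for Gabrp, with 15.26 CPM in replicate 4, Nkg7, with 9.717 CPM in replicate 3, and Ppard, with 397.5 CPM in replicate 1. In Vehicle, the highest library stood apart for Etv4 at 20.24 CPM in replicate 1, and for Gstm1 at 103.2 CPM and Hao2 at 23.18 CPM in replicate 3. The summed level of 15 pancreatic acinar genes was 7890 CPM in Vehicle replicate 4, against 50.19 to 77.76 CPM in the other Vehicle libraries. The pancreatic protease gene Prss2 had 691.1 CPM in that library and under 1 CPM in each other Vehicle library and in each MEKi 1 library. Prss2 passed the test of MEKi 1 against Vehicle although the groups overlapped (adjusted p = 0.0472).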

How the results depend on the processing

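The count of 1565 genes called between MEKi 1 and Vehicle ran from 43 to 2369 when 1 library was left out, and fell to 7 without both libraries numbered 4, an alternative chosen after seeing the data. It was 773 with no filter on low counts (382 higher, 391 lower), 4807 with limma-voom and sample weights, and 0 with the column names of the series table, where 1334 genes had an unadjusted p under 0.05. Library totals alone gave 1353, RLE factors 1562, DESeq2 2304, a length offset 1388, and a mean of at least 5 CPM 1494. Called genes numbered 528 under all 10 settings other than the column names, and 30 of these held in all 8 fits without 1 library.

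MEKi 1 against MEKi 0.3 gave 1 gene with DESeq2 and 1 without MEKi 0.3 replicate 3, a range of 0 to 1 over libraries left out. MEKi 1 against Normal gave 1026 to 2085 genes over libraries left out and 1 with the column names. Same-numbered libraries of MEKi 1 and Vehicle deviated together at correlations of -0.026 to 0.0659, so the numbers were not taken as pairs. With the replicate block MEKi 1 against Vehicle gave 1149 genes in all 24 libraries and 1578 in the 2 groups alone, and MEKi 1 against Normal 1207 in 2 groups. Of the 72 lists, 61 had a called member, 8 to 64 with 1 library left out and 1 without both libraries numbered 4. Summed levels did not overlap for 26 lists, 26 with RLE factors and 28 with library totals alone.

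Directions reversed for 2 genes that passed no test in the reported fit. Spry4 ran from -0.414 to 0.0815 with 1 library left out, the latter without Vehicle replicate 2. Etv5 ran from -0.40 to 0.18, above 0 without Vehicle replicate 4 (0.12), MEKi 1 replicate 1 (0.05) or MEKi 1 replicate 4 (0.18). It was at 0.23 with limma-voom and at 0.34 without both libraries numbered 4. The cause of these differences was not tested.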

Other observations

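Some groups of genes not described above held a few calls. Of 14 metallothionein and NRF2 target genes, 3 fell and none rose: Gclc, a glutathione synthesis gene, Txnrd1, a thioredoxin reductase gene, and Gpx2, an epithelial glutathione peroxidase gene. Gpx2 had 3728, 2795, 2554 and 2917 CPM in Vehicle and 743, 1893, 731 and 1364 CPM in MEKi 1. Replicate 2 was the MEKi 1 library nearest to Vehicle (log2 fold change -1.34 ± 0.39, adjusted p = 0.0354). Gclc was lower in MEKi 1 than in Vehicle (-0.51 ± 0.13, adjusted p = 0.0201) and than in Normal (-0.48 ± 0.13, adjusted p = 0.0149). B4galt6, a glycolipid synthesis gene called in all 8 fits without 1 library, was also lower than in both, at -0.88 ± 0.15 against Vehicle (adjusted p = 0.00653) and -0.71 ± 0.15 against Normal (adjusted p = 0.00244).

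Of 19 prostaglandin and leukotriene genes, 2 fell and none rose. Ptges, a prostaglandin E synthase gene, had 20.03, 18.2, 14.7 and 21.7 CPM in Vehicle and 9.86, 13.6, 8.44 and 10.05 CPM in MEKi 1, without overlap (-0.83 ± 0.19, adjusted p = 0.0143). Alox5ap, needed for leukotriene synthesis, had 20.9, 14.2, 14.2 and 41.2 CPM in Vehicle and 7.34, 7.12, 6.14 and 4.85 CPM in MEKi 1 (-1.81 ± 0.41, adjusted p = 0.0148). Lpl, the lipase that frees fatty acids from lipoproteins, had 74.8, 46.3, 48.9 and 86.9 CPM in Vehicle and 16.05, 21.6, 5.63 and 15.9 CPM in MEKi 1 (-2.11 ± 0.47, adjusted p = 0.0148). Of 36 ABC transporter genes 2 rose and 3 fell, beside 6.08% of all genes called higher and 4.51% called lower. Of those that rose, Abca8a, a lipid transporter gene, was higher in every MEKi 1 library, with 1.03, 0.570, 0.997 and 1.83 CPM in Vehicle and 12.8, 5.23, 14.6 and 7.28 CPM in MEKi 1 (3.15 ± 0.75, adjusted p = 0.0173). Of the 8 fits without 1 library, Gpx2 was called in 3, Abca8a in 4, and Gclc, Ptges, Alox5ap and Lpl in 5. None of these 6 was called without MEKi 1 replicate 1.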
